A study of Mus musculus with 24 samples.

Results

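The comparison described here set embryos at day 14.5 of gestation (ED14.5) in the line of obese grandfathers, labelled SL, against embryos of the same age in the control line. All arrays titled as ED14.5 entered, 4 SL and 4 control, which are 8 of the 24 arrays in the study. Genes were taken from every probe set that named exactly 1 gene, and where several probe sets named the same gene the brightest was kept. This gave 19505 genes from 19572 probe sets, and a further 2634 of 22206 probe sets named no single gene and were not used. All mice were of the outbred ICR-CD1 strain, and the labels of the groups differed in the line alone, with no diet, agent or sex given for the embryos themselves. The embryos are described as grandoffspring of control or obese males. The labels spell out neither the letters SL nor the parent that linked an embryo to its grandfather, and do not say whether the arrays of a group stand for different litters. The p-values below therefore measure the spread between these samples, which may share a parent. The study also held 8 arrays of ED7.5 embryos and 8 of liver at postnatal day 7.5 (PD7.5), used here only to test whether a difference at ED14.5 differed from that at the other ages.

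At this stage of gestation the fetal liver is the main blood-forming organ of the mouse. Hepatoblasts make albumin, alpha-fetoprotein and lipoproteins beside a large population of maturing red cells, and stem and progenitor cells, megakaryocytes, macrophages and sinusoidal endothelium share the tissue. The fetus lives mainly on maternal glucose, and the oxidation of fatty acids in liver, driven by the nuclear receptor PPARalpha and by fasting hormones, becomes prominent around birth.

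The samples are labelled as whole embryos, but their marker genes were those of fetal liver. Alb, for albumin, stood at a mean log2 level of 13.51 in control and 13.49 in SL arrays, and Afp, for alpha-fetoprotein, at 13.11 and 13.05. The embryonic globin gene Hbb-y had means of 12.61 and 12.48. A gene was called above background on an array when it exceeded the 75th percentile of that array's 5222 intron control probe sets. By this measure 18 of 19 hepatocyte markers and 15 of 15 definitive erythroid markers were above background on all 8 arrays. Against this, 12 of 15 neuron markers, 11 of 13 cartilage and bone markers, 11 of 11 trophoblast markers and 10 of 16 muscle markers were below background on all 8, among them Col2a1, the collagen of cartilage, at 4.60 and 4.66, and Myog, a regulator of muscle differentiation, at 4.57 and 4.67. The label of whole embryo is thus not borne out by these markers, and the material is called liver-rich below. In such bulk RNA, fewer cells of a type and less RNA per cell cannot be told apart.

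**Figure D1:**
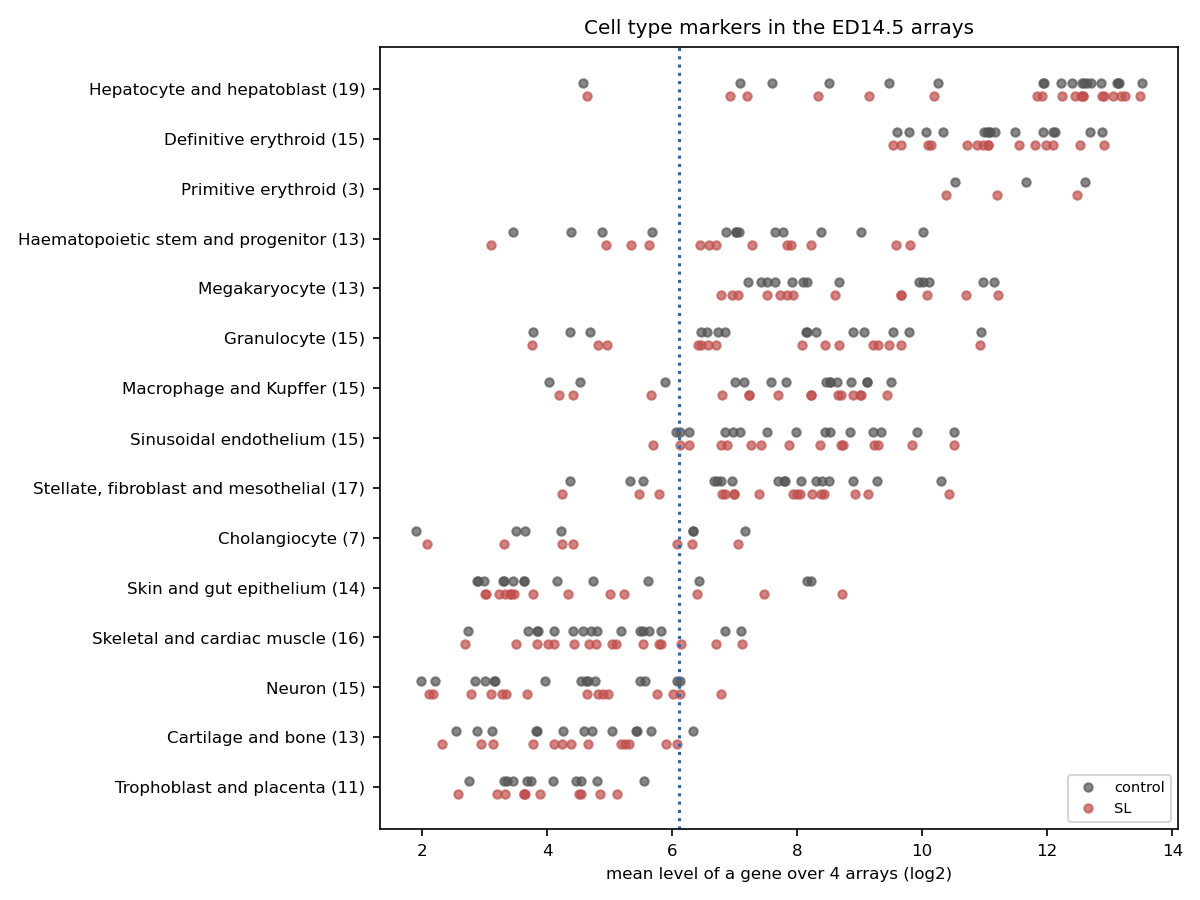
Mean log2 level of each cell type marker over the 4 control and the 4 SL arrays, 1 point per gene and group, by marker list with its number of genes, with the mean background as a dotted line. Hepatocyte and erythroid markers lie high in both groups, while most neuron, cartilage, muscle and trophoblast markers lie below background.

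The arrays themselves were alike. Control replicate 1 had the highest background, 6.51 on the log2 scale against 5.98 to 6.28 on the other 7, and the fewest genes above it, 48.3% against 50.2% to 53.7%. Its separation of exon from intron controls, as the area under the curve, was 0.885 against 0.906 to 0.927. The mean separation was 0.914 in control and 0.915 in SL arrays (exact two-sided permutation test, p = 0.886). Arrays of the same group correlated at a median of 0.990 over genes and arrays of different groups at 0.989. The Y-linked genes Eif2s3y, Kdm5d and Uty were high on 2 of 4 control arrays and on 1 of 4 SL arrays. Eif2s3y read 10.10, 2.27, 2.83 and 9.84 in control replicates 1 to 4 and 2.70, 3.70, 10.18 and 3.70 in SL replicates 1 to 4. The sexes of the embryos were thus not balanced between groups. The Y-linked level was used as a covariate in an alternative fit of all genes. It was not used in the fit of brighter genes described below, so results that passed there alone are not adjusted for sex.

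Most genes were close to equal in the lines. Of the 9182 genes above background on all 8 arrays, the median absolute difference was 0.116 log2 units, 171 genes (1.86%) differed by more than 0.5, and 11 differed by more than 1. Over all 19505 genes, 10 passed an adjusted p of 0.05 in limma with Benjamini-Hochberg adjustment, which is 0.0513% of those tested, 6 higher and 4 lower in SL. After quantile normalization of the 8 arrays 7 passed, 3 higher and 4 lower. Every single array mattered to this count, which was 4, 1, 1 and 4 without control replicates 1 to 4 and 1, 3, 1 and 5 without SL replicates 1 to 4. Without adjustment, p fell below 0.05 for 5.59% of all genes in the higher and 5.81% in the lower direction. The 4 SL values lay wholly above the 4 control values for 3.71% and wholly below for 4.27%.

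A bright gene is measured more precisely than a dim one, with a median standard error (SE) of 0.114 for genes above background on a whole group against 0.143 for all genes. The fit was therefore repeated on the 10148 genes whose mean over the 8 arrays exceeded the mean background of 6.11, a choice made after seeing the data. In that fit 183 genes passed, 86 higher (0.847%) and 97 lower (0.956%). In the fit of all genes, p without adjustment was below 0.05 for 6.68% of these genes in the higher direction and 6.74% in the lower. Their groups did not overlap for 5.60% in the higher direction and 6.28% in the lower. Below, a gene is said to have risen or fallen only where it passed in the fit of all genes, and one that passed only in the second fit is said to have passed among the brighter genes.

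**Figure D2:**
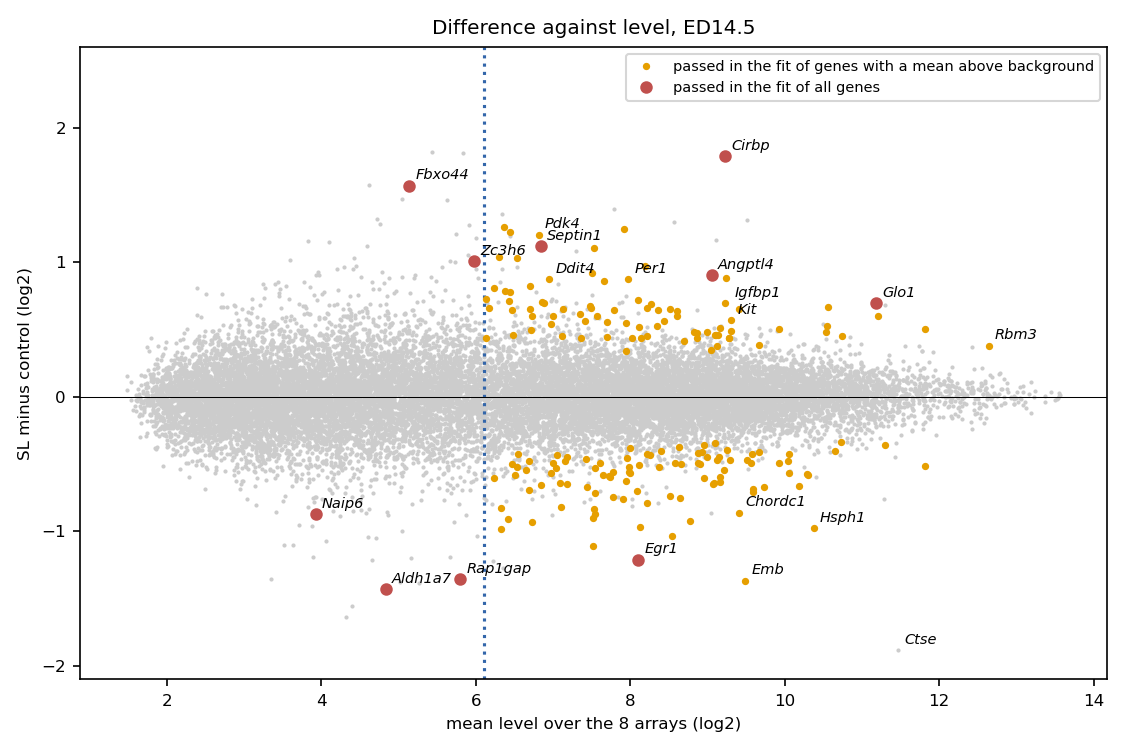
SL minus control difference in log2 units against the mean log2 level over the 8 arrays, 1 point per gene, with genes passing in the fit of all genes and of brighter genes coloured and the mean background as a dotted line. Cirbp, at 1.79, has the highest positive difference among the genes with a mean above background, and Ctse, at −1.88, the lowest.

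The largest change among the 10 called genes was in Cirbp, which encodes an RNA-binding protein made in response to mild cold and other mild stresses. Its log2 level was 8.33, 8.17, 8.44 and 8.39 in the control arrays and 10.31, 10.04, 10.03 and 10.10 in the SL arrays. All SL values lay above all control values, with a gap wider than the range inside either group. The difference was 1.79 ± 0.11 (SE, n = 4 and 4), a 3.45-fold rise (limma, adjusted p = 0.00054). Cirbp was the only gene called in each of the 8 fits that left out 1 array, and with the Y-linked level as a covariate its difference was 1.78 (adjusted p = 0.00407). In the 5 arrays without Y-linked transcripts it was 1.84 (limma, adjusted p = 0.353).

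The promoter of Cirbp is shown because this gene carried the largest change among the 10 called genes. The sequence is the 250 bases before the RefSeq start on GRCm38.p6, chr10:80167589-80167838 on the plus strand, and the capitals mark the letters TCCCCGCC, known as a mild cold element, found 240 to 247 bases before the start.
Cirbp: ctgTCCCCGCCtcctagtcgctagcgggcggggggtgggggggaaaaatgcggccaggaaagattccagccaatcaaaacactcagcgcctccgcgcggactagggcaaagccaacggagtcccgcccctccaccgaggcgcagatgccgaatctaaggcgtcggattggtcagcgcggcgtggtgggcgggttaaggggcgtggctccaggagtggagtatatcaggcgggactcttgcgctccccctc
The same letters, searched on both strands, stood in the window of 7.31% of the 15691 genes with a RefSeq window, and in 4 of the 13 members of the cold and heat shock list that had one. The other members were Hspa1a, Hspa1b and Bag3, whose differences were −0.10, −0.11 and −0.26. A match of letters in a GC-rich promoter is a description and shows no binding.

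The second cold-inducible RNA-binding protein of the list, Rbm3, was also higher. It read 12.49, 12.50, 12.45 and 12.36 in control and 12.95, 12.75, 12.81 and 12.81 in SL arrays, with no overlap and a difference of 0.38 ± 0.09. It passed among the brighter genes (adjusted p = 0.0405) but not in the fit of all genes.

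Several chaperone genes were lower in SL. Hsph1, a large Hsp110-type chaperone that helps Hsp70 release its clients, lay between 10.64 and 11.08 on the 4 control arrays and between 9.52 and 10.10 on the 4 SL arrays. The groups did not overlap, and the difference of −0.98 ± 0.15 passed among the brighter genes (adjusted p = 0.0108) and not in the fit of all genes (0.0671). Chordc1, a cochaperone that binds Hsp90, read 10.10, 9.92, 9.79 and 9.57 in control and 8.96, 8.92, 9.01 and 9.04 in SL arrays, a difference of −0.86 (adjusted p = 0.00774 among the brighter genes and 0.0611 in all). The 4 SL values of Chordc1 spanned a narrow range, and the control values fell into a wider one above it. Hspa4l, another Hsp110-type chaperone, was 0.41 lower (adjusted p = 0.0474 among the brighter genes), and Dnaja4, an Hsp40 cochaperone outside the list, 0.71 lower (0.00952). Dnajb2, another Hsp40 cochaperone outside the list, lay the other way, 0.70 higher without overlap (adjusted p = 0.0154 among the brighter genes). Over the whole list of cold-inducible and heat shock proteins, 16 of 20 genes were measured. Their median difference was −0.13 against 0.0001 for all genes, and 12 lay below 0. Without overlap 6 were lower and 2 higher (4.27% and 3.71% over all genes). By unadjusted p, 4 were lower and 2 higher (5.81% and 5.59% over all genes). The inducible Hsp70 genes Hspa1a and Hspa1b, with differences of −0.10 and −0.11, overlapped between groups.

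The Hsph1 promoter is printed as that of the listed chaperone with the largest difference, from chr5:149636337-149636586 on the minus strand of GRCm38.p6. The capitals mark TTCNNGAA, 1 of the 2 forms of the heat shock pair, 26 to 33 bases before the start.
Hsph1: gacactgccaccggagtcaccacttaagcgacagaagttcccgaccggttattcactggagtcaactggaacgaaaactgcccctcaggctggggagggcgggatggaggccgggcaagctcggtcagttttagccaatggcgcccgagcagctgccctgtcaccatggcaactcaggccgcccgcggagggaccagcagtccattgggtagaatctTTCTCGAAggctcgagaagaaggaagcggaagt
The pair (GAANNTTC or TTCNNGAA, both strands) was in the window of 13.26% of genes and of 6 of 13 list members. The full element of 3 units (GAANNTTCNNGAA or TTCNNGAANNTTC), which contains the pair, was in 0.48% of genes and in 2 of those 13, Hspd1 and Hspe1, with differences of −0.15 and 0.11.

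**Figure D3:**
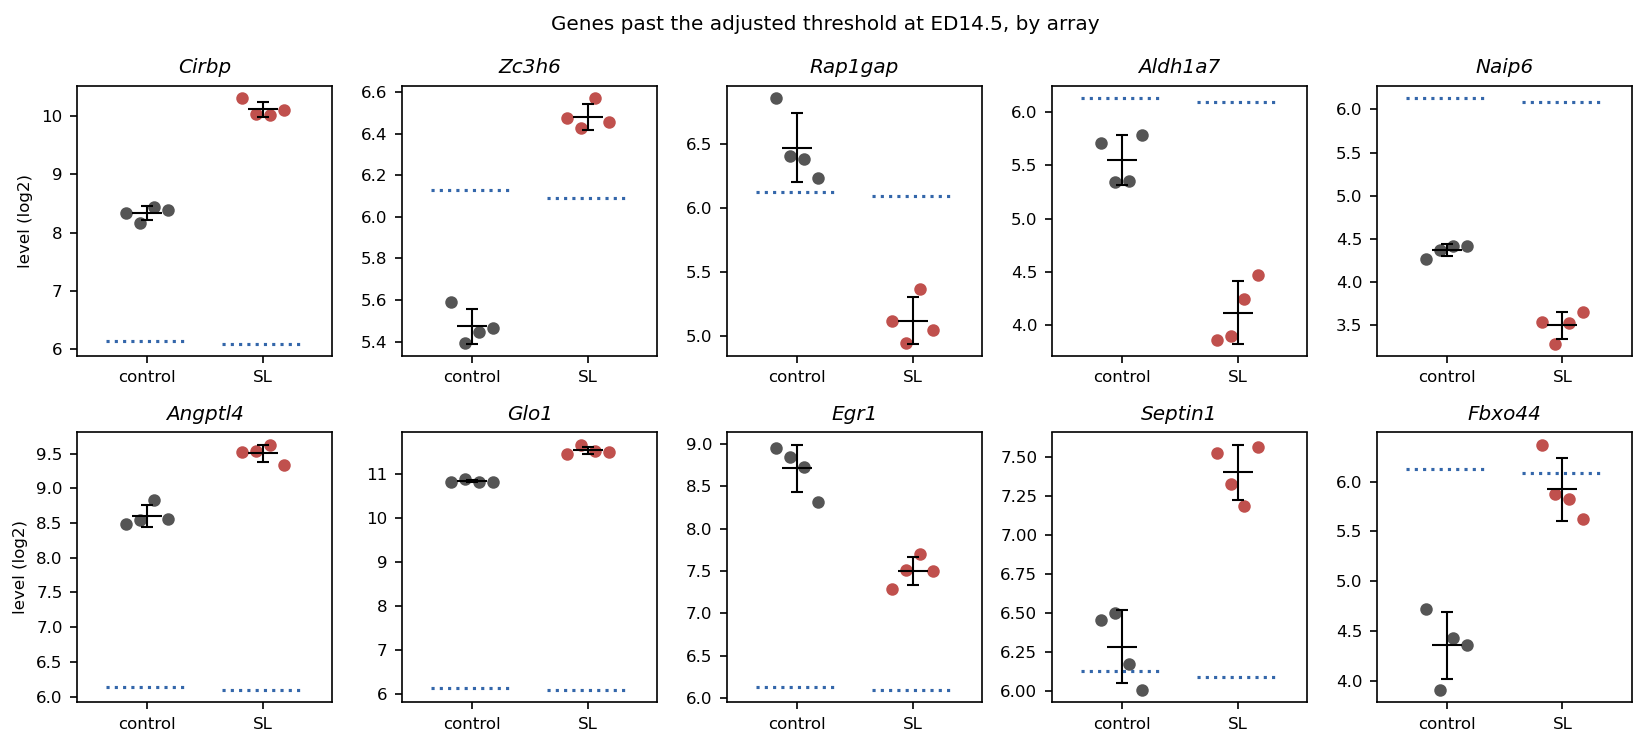
Log2 level of the 10 genes past the adjusted threshold, 1 point per array, with the group mean ± SD (n = 4) and the group's mean background as a dotted line. In Cirbp, Angptl4, Glo1 and Septin1 every SL point lies above every control point, and in Egr1 and Rap1gap every SL point lies below.

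Among the other genes past the adjusted threshold, the following were above background. Angptl4, which inhibits lipoprotein lipase and is a PPARalpha target, read 8.49, 8.54, 8.83 and 8.55 in control and 9.52, 9.54, 9.62 and 9.33 in SL arrays, with every SL array above every control array. It rose by 0.90 ± 0.11, 1.87-fold (adjusted p = 0.0456). Glo1, glyoxalase 1, which detoxifies the methylglyoxal made as a side product of glycolysis, read 10.83, 10.88, 10.83 and 10.82 in control and 11.46, 11.67, 11.52 and 11.50 in SL arrays. It rose by 0.70 ± 0.09, 1.62-fold (adjusted p = 0.0456), and the groups did not overlap.

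Egr1, an immediate early transcription factor induced by growth factor signalling, read 8.95, 8.85, 8.73 and 8.32 in control and 7.29, 7.51, 7.70 and 7.50 in SL arrays, and the groups did not overlap. It fell by 1.21 ± 0.15 on the log2 scale, 2.32-fold (adjusted p = 0.0456). Septin1, a GTP-binding cytoskeletal protein of blood cells, rose by 1.12, 2.17-fold (adjusted p = 0.0456), from 6.46, 6.50, 6.18 and 6.01 to 7.53, 7.33, 7.19 and 7.56, and was above background on 3 of the 4 control arrays and on all SL arrays. Angptl4, Glo1, Egr1 and Septin1 had an adjusted p of 0.00693 each among the brighter genes. Leaving out 1 array kept the call of Egr1 in 1 of 8 fits and that of Angptl4, Glo1 and Septin1 in none. With the Y-linked level as a covariate only Cirbp and Zc3h6 still passed in the fit of all genes.

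The remaining 5 called genes were dim. Zc3h6, a zinc finger protein, was above background on no control array and on all 4 SL arrays, at 5.59, 5.39, 5.45 and 5.47 against 6.47, 6.43, 6.57 and 6.46, which makes it at least 1.28-fold higher in SL (adjusted p = 0.00948). Rap1gap, which switches off the GTPase Rap1, was at least 1.30-fold lower in SL, at 6.86, 6.41, 6.39 and 6.24 against 5.12, 4.95, 5.37 and 5.04 (adjusted p = 0.0456). Fbxo44, a subunit of ubiquitin ligases, was called higher in SL (adjusted p = 0.0464) but was above background on 1 of 8 arrays, in the SL group. Aldh1a7 and Naip6, called lower, were below background on every array. No size of difference is given for these 3 genes.

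Genes of fatty acid oxidation and PPARalpha targets lay mostly above 0. Of 28 measured, 22 lay above 0 with a median of 0.14. Without overlap 9 were higher (3.71% over all genes) and none lower. By unadjusted p 6 were higher (5.59% over all genes) and none lower. The per-array mean of the list was 8.46 to 8.59 in control and 8.64 to 8.75 in SL. Among the brighter genes 5 passed, all higher, where 0.847% of all brighter genes passed as higher. These were Angptl4, Pdk4, Cpt1a, Ehhadh and Pex11a.

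Pdk4, the kinase that turns off pyruvate dehydrogenase and so spares glucose, read 6.07, 6.03, 6.28 and 6.46 in control and 7.20, 7.27, 7.91 and 7.28 in SL arrays. The groups did not overlap, and the difference was 1.20 ± 0.17 (adjusted p = 0.00901 among the brighter genes and 0.0611 in all), with 3 of 4 control arrays above background. Cpt1a, which admits long-chain fatty acids to mitochondria, was higher in every SL array, at 8.08, 8.31, 7.86 and 7.91 against 8.44, 8.73, 8.72 and 8.84 (difference 0.64, adjusted p = 0.0265 among the brighter genes). Ehhadh, a peroxisomal beta-oxidation enzyme, read 8.78, 8.86, 8.84 and 8.99 against 9.34, 9.27, 9.40 and 9.28 (0.46, adjusted p = 0.0185 among the brighter genes). Pex11a, which promotes division of peroxisomes, was above background on no control array and on all 4 SL arrays. It was at least 1.29-fold higher (limma, adjusted p = 0.0194 among the brighter genes). Its mean over the 8 arrays, 6.13, lay just above the cut of 6.11 for that fit. Ppara, which encodes the receptor, had a difference of −0.12 ± 0.10 (adjusted p = 0.681).

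Genes that respond to glucocorticoids, the stress hormones that also mature the fetal liver, lay mostly above 0 as well. Of 20 glucocorticoid-responsive genes, 16 lay above 0 with a median of 0.14, and none passed in the fit of all genes. By unadjusted p 7 were higher and 1 lower (5.59% and 5.81% over all genes). Without overlap 4 were higher (3.71% over all genes) and none lower. Ddit4, an inhibitor of the growth kinase complex mTORC1 that stress and glucocorticoids induce, read 6.43, 6.54, 6.60 and 6.47 in control and 7.46, 7.45, 7.61 and 7.01 in SL arrays. It passed among the brighter genes with a difference of 0.87 (adjusted p = 0.0104). Per1, a clock gene that glucocorticoids also induce, read 7.81, 7.63, 7.29 and 7.43 against 8.11, 8.42, 8.66 and 8.47, with a difference of 0.88 (adjusted p = 0.0146). Fkbp5, a cochaperone of the glucocorticoid receptor, was 0.38 higher at 9.47, 9.53, 9.52 and 9.37 against 9.80, 9.89, 9.91 and 9.82 (adjusted p = 0.0354). In each of these 3 genes all SL arrays lay above all control arrays. The list's per-array mean was 7.61 to 7.72 in control and 7.83 to 8.01 in SL. Its median was 0.27 over the 16 members above background on all arrays of a group, of which 14 were so on all 8 arrays. This filter can admit a gene through the group where it is high.

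In the list of fasting, FOXO targets and gluconeogenesis, 19 genes were measured with a median of 0.17, 12 above 0 and 7 below. By unadjusted p 6 were higher (5.59% over all genes) and none lower. Without overlap 2 were higher (3.71% over all genes) and none lower. Igfbp1, a binding protein for insulin-like growth factors that insulin represses in liver, was 0.88 higher at 8.63, 8.69, 8.71 and 9.19 against 9.79, 9.31, 10.14 and 9.51 (adjusted p = 0.0382 among the brighter genes). The clock list did not share a direction: of 19 measured genes, 10 lay above 0 with a median of 0.01, while Per1 was higher and Per2 was 0.49 lower (adjusted p = 0.0435 among the brighter genes). The immediate early genes showed a lower median of −0.08 with 16 of 24 below 0 and Egr1 alone called. Junb was 0.63 lower and Klf6 and Myc each 0.27 lower, without overlap, whereas Ier3 was 0.70 higher with overlapping groups.

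In sugar metabolism the differences were small but for 1 enzyme. Of 18 glycolysis genes 14 lay below 0 with a median of −0.06, and Pfkfb3, which makes the activator of phosphofructokinase, was 0.76 lower at 8.22, 8.42, 8.21 and 8.28 against 7.23, 7.64, 7.50 and 7.72. It passed among the brighter genes (adjusted p = 0.0119).

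Genes of sterol synthesis lay mostly below 0. Of 19 cholesterol synthesis genes 17 lay below 0 with a median of −0.20. By unadjusted p 8 were lower (5.81% over all genes) and none higher. Without overlap 5 were lower (4.27% over all genes) and none higher. Cyp51, which removes a methyl group from lanosterol, read 10.78, 10.79, 10.90 and 10.92 in control and 10.60, 10.34, 10.51 and 10.33 in SL arrays, without overlap. It passed among the brighter genes (adjusted p = 0.0489). Of 20 fatty acid and triglyceride synthesis genes 14 lay below 0 with a median of −0.13. By unadjusted p 4 were lower and 2 higher (5.81% and 5.59% over all genes). Without overlap 2 were lower and 2 higher (4.27% and 3.71%). Fasn, fatty acid synthase, was 0.34 lower with overlapping groups. Lpin1, a phosphatidate phosphatase of triglyceride synthesis, had the largest difference of the list, 0.59 higher without overlap, and passed in neither fit.

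In the unfolded protein response, 20 genes were measured with a median of −0.15. There were 7 lower and 1 higher without overlap (4.27% and 3.71% over all genes), and 6 lower (5.81%) and none higher by unadjusted p. The per-array mean was 9.91 to 9.98 in control and 9.81 to 9.85 in SL, so the groups did not overlap. Creld2, a secreted stress-induced chaperone, read 9.08, 9.17, 9.14 and 9.15 against 8.84, 8.77, 8.74 and 8.75 and passed among the brighter genes with a difference of −0.36 (adjusted p = 0.0344). Xbp1, a transcription factor of the response, was 0.38 lower without overlap and passed in neither fit. Hspa5, the main Hsp70 of the endoplasmic reticulum, was 0.24 lower, and Hsp90b1, its Hsp90, 0.19 lower, neither past the adjusted threshold in either fit. The ER stress element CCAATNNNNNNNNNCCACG was searched on both strands. It stood in the window of 0.17% of genes with a window and of 9 of 18 members of this list. Those shown are the members with the element whose groups did not overlap.
Hspa5: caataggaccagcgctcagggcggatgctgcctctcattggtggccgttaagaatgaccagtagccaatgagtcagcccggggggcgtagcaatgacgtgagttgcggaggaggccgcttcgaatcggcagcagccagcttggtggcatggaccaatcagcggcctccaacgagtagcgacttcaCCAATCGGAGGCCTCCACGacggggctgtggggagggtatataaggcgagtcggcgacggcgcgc
Creld2: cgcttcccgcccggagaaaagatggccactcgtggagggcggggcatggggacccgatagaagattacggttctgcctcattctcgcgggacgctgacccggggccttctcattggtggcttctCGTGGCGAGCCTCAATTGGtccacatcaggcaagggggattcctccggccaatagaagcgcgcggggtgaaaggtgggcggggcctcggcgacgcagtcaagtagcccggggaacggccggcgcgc
Hsp90b1: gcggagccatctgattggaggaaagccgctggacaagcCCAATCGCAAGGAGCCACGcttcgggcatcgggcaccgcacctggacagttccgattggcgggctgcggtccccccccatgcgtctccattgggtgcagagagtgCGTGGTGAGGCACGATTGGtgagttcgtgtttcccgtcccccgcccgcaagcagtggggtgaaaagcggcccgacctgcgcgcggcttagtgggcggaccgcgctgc
The windows lie at chr2:34771840-34772089 on the plus strand for Hspa5, chr15:88819396-88819645 on the plus strand for Creld2 and chr10:86705445-86705694 on the minus strand for Hsp90b1. The capitals mark the element, which stood 47 to 65 bases before the start in Hspa5, 108 to 126 in Creld2, and at both 194 to 212 and 89 to 107 in Hsp90b1. The other members with the element overlapped between groups. For Calr, Dnajc3 and Syvn1 the differences were −0.12, −0.17 and −0.20. For Canx, Pdia6 and Derl3 they were 0.04, −0.03 and −0.001, so members with the element did not all lie lower.

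Redox genes lay mostly above 0 by small amounts. Of 22 measured genes of NRF2 and redox defence, 19 lay above 0 with a median of 0.08. Both by unadjusted p and without overlap 5 were higher (5.59% and 3.71% over all genes) and none lower. Glo1 was called in the fit of all genes, and Gsr, glutathione reductase, was 0.45 higher (adjusted p = 0.0321 among the brighter genes). The per-array mean was 10.36 to 10.50 in control and 10.56 to 10.60 in SL. Nfe2l2, which encodes the transcription factor NRF2 itself, was 0.08 lower. Proteasome subunits lay in the same direction by a small amount, 21 of 25 above 0 with a median of 0.11. Of these subunits 6 were higher without overlap (3.71% over all genes) and none by unadjusted p. Ribosomal proteins had a median of 0.07 with 24 of 29 above 0, and respiratory chain subunits 0.06 with 24 of 35 above 0.

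**Figure D4:**
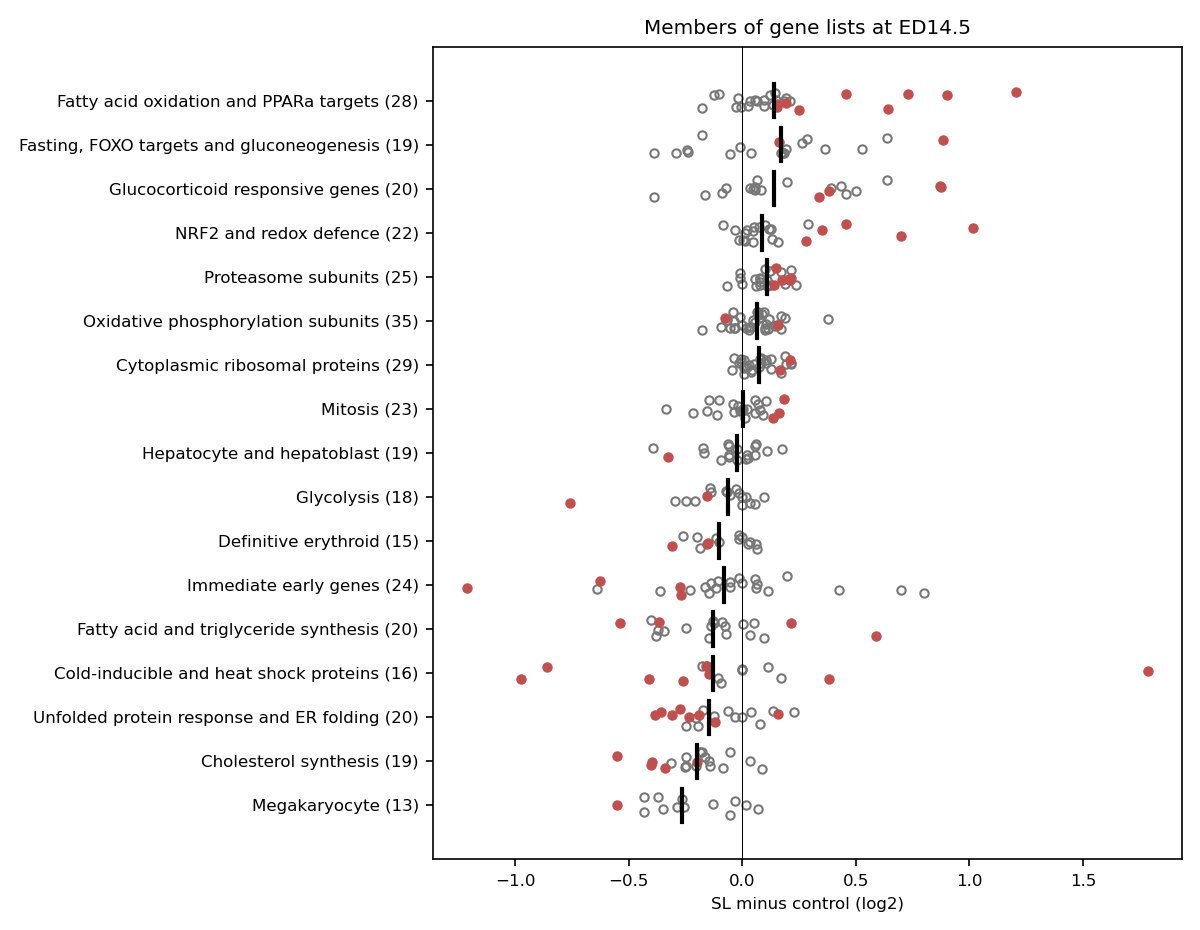
Differences in log2 units between SL and control for the members of 17 of the lists, 1 point per gene, with filled points for genes whose groups do not overlap and a bar at the list median. Among the lists drawn, the medians run from −0.27 for megakaryocyte markers to 0.17 for fasting genes, and fatty acid oxidation and cholesterol synthesis lie on opposite sides of 0.

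The markers of liver cell types gave no score that passed. For hepatocyte markers the mean difference was −0.06 (exact two-sided permutation test, p = 0.143), for definitive erythroid markers −0.09 (p = 0.0857) and for megakaryocyte markers −0.24 (p = 0.143). With 4 against 4 arrays the test cannot go below 0.0286, and the smallest adjusted p over the 17 scores was 0.486. That was the neuron score, which held 1 gene, Gap43, and stood at this lowest possible p. A single score at the lowest p thus could not pass after adjustment, so no conclusion on equal cell composition is drawn. Each score took the markers above background on all 4 arrays of at least 1 group. Gap43 entered through the SL group, where it was higher, so no support is drawn from the p of the neuron score. The granulocyte score held 12 such markers, of which 9 were above background on all 8 arrays. Kit, the receptor for stem cell factor on blood progenitors, was 0.57 higher at 9.02, 8.93, 9.07 and 9.05 against 9.48, 9.48, 9.72 and 9.68 and passed among the brighter genes (adjusted p = 0.0135), whereas Slamf1, another progenitor marker, was 0.62 lower and passed in neither fit. Kitl, which encodes the ligand of Kit, was 0.50 lower (adjusted p = 0.0357 among the brighter genes). None of the hepatocyte, erythroid, megakaryocyte, granulocyte, macrophage or endothelial markers passed in either fit. Outside the liver lineages, Gap43, a growth cone protein of neurons, read 5.90, 6.16, 5.87 and 6.37 in control and 6.73, 6.66, 6.95 and 6.80 in SL arrays. It was above background on 2 control and 4 SL arrays and passed among the brighter genes with a difference of 0.71 (adjusted p = 0.0173), while 12 of the 15 neuron markers were below background on every array. Fabp2, a fatty acid carrier of gut epithelium, was 0.56 higher and passed there too. Of the 14 skin and gut epithelium markers, 11 were below background on all 8 arrays, and by unadjusted p 1 was higher and 2 lower. For the lists above, the part of cell composition in the differences was not tested. Of 18 interferon response genes measured, 14 lay above 0 with a median of 0.24, and 6 were below background on all 8 arrays. Bst2, which holds virus particles at the cell surface, read 6.27, 7.05, 6.74 and 8.32 against 8.48, 8.74, 8.39 and 8.32, so that control replicate 4 lay close to the SL arrays. Without control replicate 4 the median of the list was 0.18.

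Of the next-ranked genes, Mlec, an endoplasmic reticulum lectin, showed the tightest groups, at 10.57, 10.61, 10.58 and 10.56 against 9.94, 10.07, 9.96 and 10.06 (difference −0.58, adjusted p = 0.00774 among the brighter genes). Il1rn, the antagonist of the interleukin-1 receptor, read 8.06, 8.12, 7.86 and 7.85 against 6.82, 7.11, 7.29 and 7.06 (−0.90, 0.00774). Neither gene overlapped between groups.

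Whether the ED14.5 differences differed from those of the other ages was tested by an interaction in a fit of all 24 arrays. The ED7.5 samples were labelled embryos, the PD7.5 samples were liver, and the ED14.5 material was liver-rich. Age and tissue thus cannot be told apart in these interactions. The effect at ED14.5 differed from that at ED7.5 in 15 genes (0.0769%) and from that in PD7.5 liver in 5 (0.0256%). Cirbp was in both sets. Its SL minus control difference was −0.28 ± 0.14 at ED7.5 and 0.20 ± 0.14 in PD7.5 liver, which left the ED14.5 effect larger by 2.07 (adjusted p = 1.13e-05) and 1.59 (adjusted p = 0.00115).

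Against ED7.5, the effect of Egr1 differed by −1.46 (adjusted p = 0.0151), with a difference of 0.25 at the earlier age. Pdk4 differed by 1.40 (adjusted p = 0.0107) and Hsph1 by −1.23 (adjusted p = 0.0134). Against PD7.5 liver, Ddit4 differed by 1.74 (adjusted p = 0.0472), and it was 0.87 lower in SL there. That call was kept in 1 of the 8 fits that left out an ED14.5 array, the one without SL replicate 4. Angptl4 and Glo1, called at ED14.5, did not pass either interaction: for Angptl4 the effects were 0.09 at ED7.5 and −0.01 in PD7.5 liver (adjusted p of the interactions 0.113 and 0.0648), and for Glo1 they were −0.11 and −0.25 (0.228 and 0.106). Gdpd3 gave the largest interaction against ED7.5, −4.23, with a difference of −0.35 ± 0.34 at ED14.5, where its mean level was not above background.

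**Figure D5:**
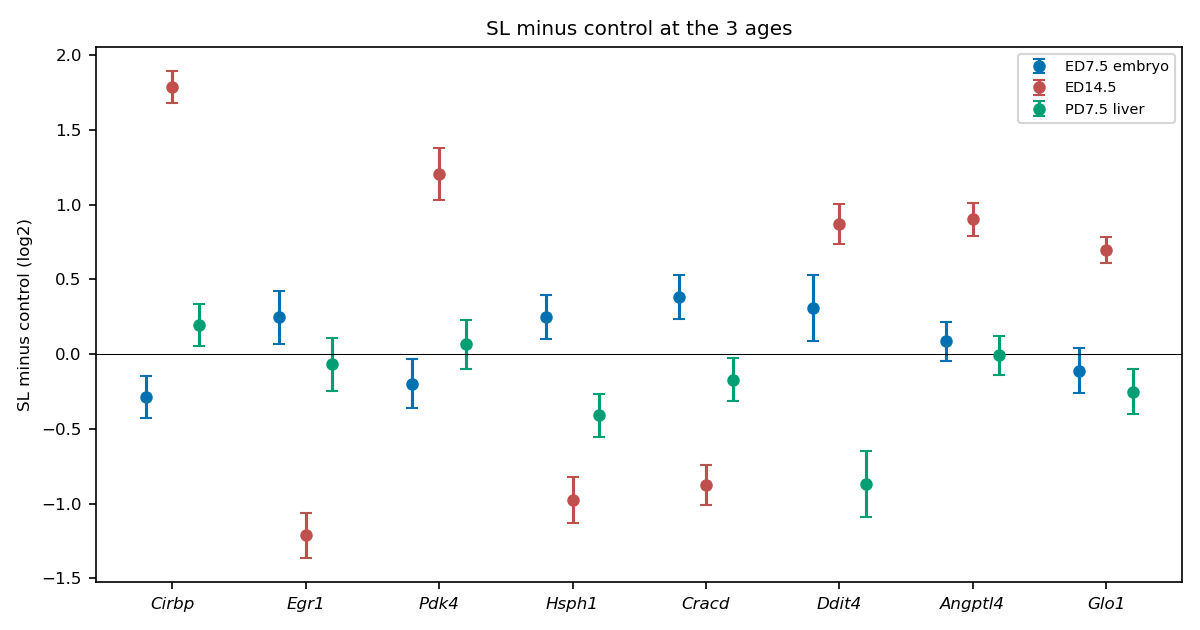
SL minus control differences in log2 units with SE at ED7.5, ED14.5 and in PD7.5 liver for 8 genes, from the fit of 8 arrays at ED14.5 and of 24 arrays at the other ages. Cirbp, Pdk4 and Egr1 stand away from 0 at ED14.5 and close to 0 at the other ages, while Ddit4 lies on opposite sides at ED14.5 and in PD7.5 liver. Tissue differed along with age.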

How the data were processed

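The data were 24 Affymetrix arrays of total RNA, biotin-labelled after Trizol extraction of snap-frozen samples, per the labels' protocols. The authors deposited log2 values made with RMA in oligo, per the submitters' processing notes; no version or genome build is given in the sources used here. No scanner files or scan dates were used here, so array batches were not tested. No further normalization was applied.

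Gene names came from the platform annotation. Intron controls (5222 probe sets) set the background of each array at their 75th percentile. Differences were tested with limma 3.58.1 in R 4.3.3 (lmFit and eBayes, two-sided, no covariate) over 19505 genes, with Benjamini-Hochberg adjustment and a threshold of 0.05; the 8 arrays of ED14.5 entered, and interactions with the other ages used all 24. The fit was checked on simulated data. Scores were compared by exact permutation with scipy 1.17.1. Figures used matplotlib 3.10.9 under python 3.11.15, with pandas 2.3.3 and numpy 2.4.6.

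Named genes were those past the threshold, the next 12 in each direction by p among genes above background without overlap, up to 3 per gene list, and marker anchors, from which the report describes a part; other genes were named after their values were seen. The comparison, lists and members were chosen with earlier results of these data known. Gene lists are described by counts and medians with no set test, and array means of cell type markers above background were compared by exact permutation. Lists were read over all measured members, and over members above background as an alternative. Promoter windows and starts are those of RefSeq on GRCm38.p6. Alternatives covered the prior, array weights, quantile normalization, the replicate block, sex, background, probe set choice and leaving out each array.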

Additional observations from a re-analysis of the deposited data

Results flagged for a closer look

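Of 250 groups of 4 arrays tested for a value far from the other 3, 13 stood out (5.2%), where chance flags about 1 in 20. The measure is the gap to the nearest other array over the whole range of the group. In the control group it was 0.851 for Glo1, whose replicate 2 read 10.88, 0.863 for Igfbp1 in replicate 4, 0.912 for Pdk1 and 0.897 for Hbb-y in replicate 1, and 0.978 for Foxo3 and 0.991 for Mpo in replicate 3. In the SL group it was 0.955 for Akr1c19 and 0.833 for Mvd in replicate 2, and 0.878 for Pdk4, whose replicate 3 read 7.91. SL replicate 1 stood out for Pex11a (0.83), Hyou1 (0.907), Calr (0.864) and Mt1 (0.921).

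The SL effect at ED14.5 differed from that at ED7.5, by an interaction tested over all genes, in Cirbp by 2.07, Egr1 by −1.46, Pdk4 by 1.40, Cracd by −1.26 and Hsph1 by −1.23. It also differed in Rex2 by 2.01, Havcr2 by 2.03, Map7d3 by 1.13, Traf4 by −1.08, Zfp600 by 2.20, Slc10a5 by −1.50, Sat2 by 1.18, Btc by 1.07 and Slc27a2 by 1.07. For Gdpd3 the value was −4.23, while its difference at ED14.5 itself was −0.35 ± 0.34. The mean levels of Rex2, Havcr2, Btc and Gdpd3 over the ED14.5 arrays were not above background, so the sizes given for them are uncertain. Small differences at ED14.5 itself were also seen for Sat2, Btc and Slc27a2. Over the fits that left out 1 array they were 0.31 to 0.44, 0.25 to 0.42 and 0.07 to 0.19.

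Against PD7.5 liver the effect differed in Cirbp by 1.59, Ddit4 by 1.74, Dnajb2 by 1.14, Ampd2 by 0.74 and Slc22a28 by 2.21. The difference of Slc22a28 at ED14.5 itself was 0.32 to 0.67 over the fits that left out 1 array. Its mean level over the ED14.5 arrays was not above background, so these sizes are uncertain. All values are log2 differences.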

How the results depend on the processing

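The count of 10 genes past the threshold depended on the fit. It was 283 with an intensity trend and robust prior, 79 with all 24 arrays in the fit, 233 over genes above background on all arrays of a group, 183 over genes with a mean above background, 2 with the Y-linked level as a covariate, and 0 in the 5 arrays without Y-linked transcripts (limma, smallest adjusted p = 0.353; 695 higher and 1007 lower at an unadjusted p below 0.05). Settings that dropped genes or arrays tested fewer of them, and the cause of the other shifts was not tested. With the replicate block it was 0 (limma, smallest adjusted p = 0.0513), with 1012 genes higher and 1064 lower at an unadjusted p below 0.05. Same-numbered arrays showed little shared deviation over genes above background (r = −0.0431, −0.031, 0.0738 and 0.0096). These values cannot show whether the numbers pair the samples, and the labels do not say. Leaving out 1 array gave 1 to 5. Genes above background with an unadjusted p below 0.05 numbered 1340, and 827 with background at the 95th percentile. The interaction counts of 15 and 5 became 35 and 28 with the trend and robust prior, and 1 to 11 for PD7.5 liver when 1 array was left out. The 34 called and next-ranked genes kept the sign of their difference in all 272 fits that left out 1 array. Their groups did not overlap, so leaving out 1 array could not have changed the sign. Of 44 list medians, 15 changed sign in at least 1 setting, among them clock genes (−0.06 to 0.06) and granulocyte markers (−0.04 to 0.14), and 1, Mitosis, did so under quantile normalization. Small medians that kept their sign still varied, as for glycolysis (−0.14 to −0.04) and respiratory chain subunits (0.02 to 0.08).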

Other observations

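Among genes above background on all 8 arrays, the 4 largest differences outside the called genes varied widely within a group, and were looked up after their values were seen. Ctse, which encodes the aspartic protease cathepsin E, read 12.41, 12.51, 12.40 and 12.34 in control and 9.31, 9.32, 11.74 and 11.75 in SL arrays. The SL arrays thus fell into a low and a nearer pair, and the difference of −1.88 ± 0.57 did not pass (limma, adjusted p = 0.265). Emb, for the membrane glycoprotein embigin, read 10.49, 10.47, 9.89 and 9.82 in control and 9.82, 8.52, 8.43 and 8.45 in SL arrays, and passed among the brighter genes alone (limma, adjusted p = 0.0466).

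Hsd3b6, a steroid dehydrogenase, read 8.12, 9.92, 8.52 and 8.84 in control and 9.92, 10.30, 10.39 and 10.05 in SL arrays, with control replicate 2 inside the SL range. Pnliprp1, a pancreatic lipase-related protein, read 8.11, 8.16, 6.61 and 8.81 against 9.35, 9.04, 9.35 and 9.15, without overlap. Neither passed in the fit of all genes. The next in size, Zfp979, a zinc finger gene, was less spread, at 7.30 ± 0.35 in control and 8.55 ± 0.17 in SL arrays (SD, n = 4 each), without overlap.

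Of 22 imprinted genes measured, 17 lay below 0 with a median of −0.10, which was −0.05 without control replicate 1 and without control replicate 2, and −0.04 over the members above background. Peg3, a paternally expressed zinc finger gene, was the only member with an unadjusted p below 0.05, at −0.33. None was called.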
